A study of Mus musculus with 160 samples.

Results

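Ttr, Kl, Folr1, Otx2, Clic6, Aqp1, Prlr, Sostdc1 and Slc4a5 are genes for which the choroid plexus is a main site of expression in the mouse brain. They were taken by name from the count table, which lists 39179 genes, and all 9 were found. The libraries came from R6/2 mice, which carry the transgene Tg(HDexon1)62Gpb (a fragment of human huntingtin with a long CAG repeat, used as a model of Huntington's disease), and from wild-type (WT) mice, both on a C57BL/6J background. All mice were 12 weeks old and had been given CHDI-00340246, which blocks the enzyme kynurenine 3-monooxygenase, as 1 oral dose of 10 mg/kg, or vehicle alone, and tissue was taken 6 h later. Striatum, cortex, cerebellum and liver each gave 4 groups (R6/2 with CHDI-00340246, R6/2 with vehicle, WT with CHDI-00340246, WT with vehicle) of 10 libraries, 5 from females and 5 from males. The labels number the replicates without saying that each is a separate animal, and they do not say which tissues share an animal, so the tests rest on the spread among libraries, which may in part be technical. The brain pieces are labelled as the left side, and how each piece was cut from its surroundings, ventricle included, was not given in the sources used here, so its part in the levels was not tested.

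The genes are spread over 8 chromosomes (GRCm38, GENCODE M21), Ttr at chr18:20665280-20674321, Kl at chr5:150952607-150993817, Folr1 at chr7:101858331-101870788, Otx2 at chr14:48657677-48673819, Clic6 at chr16:92485736-92541243, Aqp1 at chr6:55336432-55348555, Prlr at chr15:10177238-10349180, Sostdc1 at chr12:36314139-36318452 and Slc4a5 at chr6:83219828-83304945. Folr1 overlaps Anapc15 and Otx2 overlaps the long noncoding RNA gene Otx2os1, both on the opposite strand. Otx2, Clic6 and Prlr also overlap Gm49154, 2410124H12Rik and Gm21973 on their own strand, and the sources used here do not say whether strand was used in counting. Reads of these overlapping genes may thus be shared, and the values of Folr1, Otx2, Clic6 and Prlr carry that uncertainty.

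The choroid plexus is a sheet of secretory epithelium over a vascular core that hangs in the brain ventricles and makes cerebrospinal fluid. The lateral ventricle borders the striatum, and the ventricle of the hindbrain lies under the cerebellum, each with its own plexus. Its epithelium is known for very high Ttr, which encodes transthyretin, the carrier of thyroxine and retinol. Aqp1 encodes a water channel, Slc4a5 a sodium bicarbonate cotransporter and Clic6 a protein of the chloride intracellular channel family. Folr1 encodes the folate receptor that brings folate into the cerebrospinal fluid, Prlr the prolactin receptor and Kl the co-receptor klotho, which serves fibroblast growth factor 23. Otx2 encodes a homeodomain transcription factor needed for the plexus to form, and Sostdc1 a secreted antagonist of BMP and Wnt signalling. Ttr, Aqp1 and Prlr are also liver genes.

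The RefSeq table (GRCm38.p6) held the 250 bases before an annotated start for 5 of the 9 genes, 10 windows in all, and these are the sequences in front of genes whose levels moved together below. The windows were searched on both strands for GGGCGG, the GC box, and for TAATCC, the core of OTX homeodomain sites, because Otx2 is itself among the genes. Of all 32851 windows in the table, 32.7% held GGGCGG and 6.25% held TAATCC. The GC box stood in 3 of the 10 windows, those of Kl, Aqp1 and Slc4a5, and TAATCC in 1, the third start of Otx2. Capitals mark the matches, read 5′ to 3′ on the strand of the gene (CCGCCC and GGATTA are the motifs on the other strand). No match says only that these letters are not in the window.
Kl, chr5:150952357-150952606 (+): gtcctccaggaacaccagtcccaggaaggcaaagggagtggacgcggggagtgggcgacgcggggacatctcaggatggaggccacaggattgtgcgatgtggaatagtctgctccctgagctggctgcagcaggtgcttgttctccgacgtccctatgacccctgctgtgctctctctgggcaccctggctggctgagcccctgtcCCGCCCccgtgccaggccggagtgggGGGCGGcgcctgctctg
Aqp1, chr6:55336049-55336298 (+): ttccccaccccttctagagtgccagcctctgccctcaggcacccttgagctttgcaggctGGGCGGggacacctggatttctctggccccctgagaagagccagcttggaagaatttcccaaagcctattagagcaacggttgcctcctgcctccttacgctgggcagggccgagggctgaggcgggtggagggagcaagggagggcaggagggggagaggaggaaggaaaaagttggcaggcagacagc
Slc4a5, chr6:83237125-83237374 (+): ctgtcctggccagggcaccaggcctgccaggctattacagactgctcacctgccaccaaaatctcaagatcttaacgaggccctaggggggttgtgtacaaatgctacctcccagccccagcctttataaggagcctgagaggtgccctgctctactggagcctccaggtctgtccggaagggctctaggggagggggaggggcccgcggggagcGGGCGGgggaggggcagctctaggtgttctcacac
Otx2, chr14:48665110-48665359 (-): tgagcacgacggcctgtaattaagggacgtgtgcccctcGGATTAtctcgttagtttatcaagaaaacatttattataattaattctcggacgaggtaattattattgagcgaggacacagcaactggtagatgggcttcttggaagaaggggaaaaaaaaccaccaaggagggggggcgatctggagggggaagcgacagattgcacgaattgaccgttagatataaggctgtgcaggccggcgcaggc
The GC content of these windows was 66.8% for Kl, 62% for Aqp1, 62.8% for Slc4a5 and 48.4% for Otx2.

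Each library held between 28.47 M and 46.3 M counts, estimated per gene by the authors. All 9 genes passed the filter on low counts in each brain region, and 4 of 9 (Ttr, Clic6, Aqp1 and Prlr) passed it in the liver. Levels below are CPM (counts scaled by library size, with TMM), which compare a gene between libraries but not genes with each other. The labelled tissues carried their own markers. In the cerebellum, 10 cerebellar neuron genes together took 4917 to 5547 CPM in R6/2 vehicle libraries and 8073 to 9446 CPM in WT vehicle libraries. In the striatum, 10 medium spiny neuron genes took 2295 to 2954 CPM in R6/2 vehicle libraries, against 7298 to 8738 CPM in WT vehicle libraries. In the cortex, 10 projection neuron genes took 1478 to 1943 CPM in R6/2 vehicle libraries, against 2146 to 3044 CPM in WT vehicle libraries. In these bulk samples, fewer cells of a type and less RNA per cell cannot be told apart.

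Ttr split the cerebellum libraries into separate clusters. In the cerebellum, 19 libraries had at most 25.9 CPM of Ttr and 21 had at least 261 CPM, with none between, a gap of 10.1-fold. The 19 lower libraries ran from 2.83 to 25.9 CPM with a median of 9.32 CPM. The 21 upper ones ran from 261 to 2719.8 CPM with a median of 1489.8 CPM. Only the highest of them reached the range of the liver, 2590.4 to 7615 CPM with a median of 4682 CPM. Each tissue was scaled apart, so this comparison is a rough one. Both clusters held every group, and the upper one took 4 of 10 libraries of R6/2 with CHDI-00340246, 7 of 10 of R6/2 with vehicle, 4 of 10 of WT with CHDI-00340246 and 6 of 10 of WT with vehicle. It held 12 libraries from females and 9 from males. The labels also carry a code from L1 to L8 whose meaning is not given in the sources used here, and all 8 codes occurred in both clusters.

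The cortex showed the same kind of excursion in fewer libraries. The median over its 40 libraries was 18.3 CPM of Ttr, and 6 libraries exceeded 100 CPM. In R6/2 cortex these were 401 and 331 CPM with CHDI-00340246 and 222 CPM with vehicle. In WT cortex they were 1685, 154.2 and 124.8 CPM, all with CHDI-00340246, and no WT vehicle library passed 30.7 CPM. Of the 6 libraries, 5 came from females. The striatum had no such libraries, with 5.46 to 89.7 CPM of Ttr around a median of 22.2 CPM, and the highest library, WT male replicate 3 with CHDI-00340246, was followed in its group by 23.5 CPM.

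**Figure D1:**
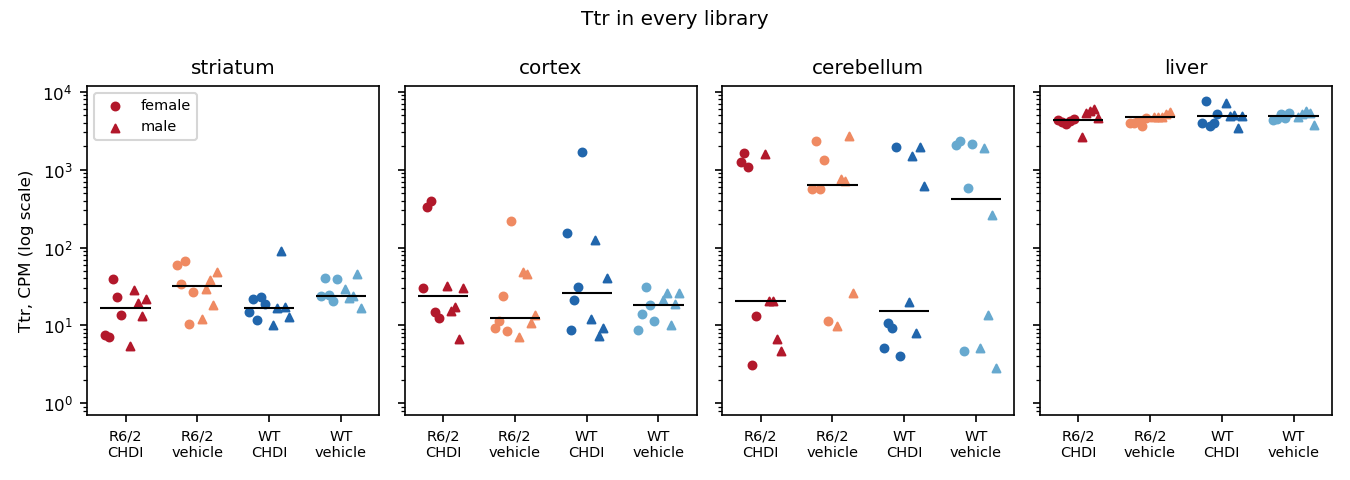
Ttr level (TMM-scaled CPM, log axis) in every library of the 4 tissues by genotype and treatment; each point is a library and each bar the median of its group. The cerebellum points leave an empty band from 25.9 to 261 CPM in every group, the cortex has 6 points above 100 CPM, and the liver points all lie above 2590 CPM.

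How these libraries differ was followed gene by gene. The lower and upper cerebellum libraries were divided by Ttr itself, so the levels of the other genes on either side are given as a description. Folr1 had a median of 7.9 CPM in the upper cluster and 0.0794 CPM in the lower, and its ranges of 2 to 17.5 CPM and 0.0277 to 0.307 CPM did not overlap. Sostdc1 had 11.7 and 0.111 CPM, Kl 41.4 and 1.45 CPM, Aqp1 6 and 0.158 CPM, and Prlr 13.6 and 0.659 CPM (medians, upper cluster first). For each of these genes too, the lowest upper library lay above the highest lower one. Slc4a5 (13 and 1.31 CPM) kept a level of 0.679 to 2.77 CPM in the lower cluster. Clic6 had medians of 24.1 and 7.19 CPM, and its ranges of 9.78 to 48.4 and 0.953 to 11.2 CPM overlapped. Otx2 differed least, with medians of 20.1 and 12.7 CPM and ranges of 11.9 to 26.4 and 7.81 to 18.8 CPM, so cerebellum libraries with almost no Ttr still held Otx2.

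In the upper cerebellum libraries the ratio to Ttr was narrow for some genes and wide for others. Per 1000 CPM of Ttr there were 30.7 CPM of Kl as a median, with 19.9 to 39.5 CPM over the 21 libraries. Folr1 had 6.34 CPM per 1000 CPM of Ttr (4.84 to 8.35), Sostdc1 10 (5.33 to 14.6), Prlr 9.15 (5.83 to 14.3) and Slc4a5 9.18 (7.08 to 19.6). Aqp1 had 3.18 CPM per 1000 CPM of Ttr in R6/2 and 4.51 in WT. Clic6 had 17 (14.8 to 21) in R6/2 and 24 (16.3 to 56) in WT. Otx2 varied most, from 7.88 to 45.7 CPM per 1000 CPM of Ttr, a 5.79-fold range. The 6 cortex libraries gave 44.7 CPM of Kl per 1000 CPM of Ttr (34.7 to 55.4), 8.06 of Folr1, 14.5 of Prlr, 14 of Sostdc1, 7.91 of Slc4a5, 6.22 of Aqp1 and 20.7 of Clic6. Otx2 was at 3.97 CPM per 1000 CPM of Ttr in the cortex libraries and at 15.1 in the upper cerebellum libraries, where part of it is found without Ttr as well.

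**Figure D2:**
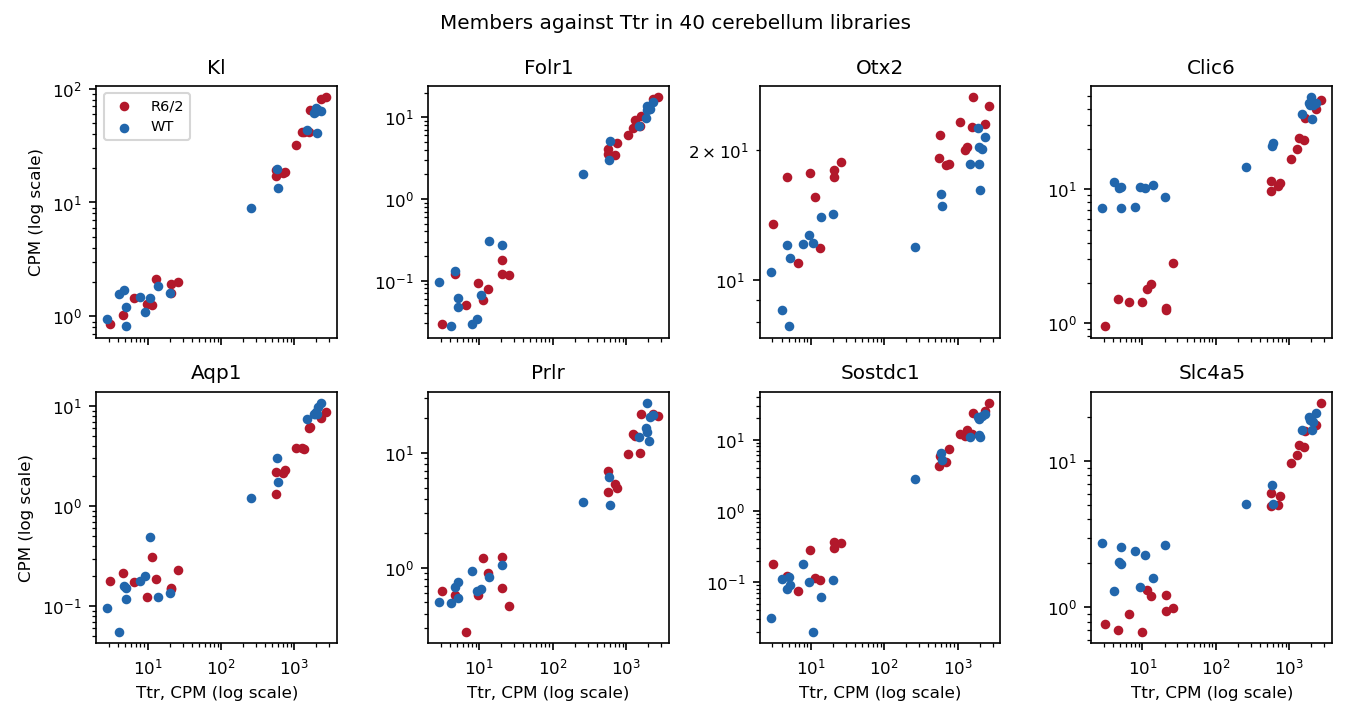
Level of each of the other 8 genes (TMM-scaled CPM, log axis) against Ttr (TMM-scaled CPM, log axis) in the 40 cerebellum libraries, coloured by genotype. A value of 0 is drawn at 0.02 CPM. In the cerebellum Folr1, Kl, Aqp1, Prlr and Sostdc1 lie higher in every library above the gap in Ttr than in any below it, while Otx2 stays at 7.81 CPM or above at low Ttr and the ranges of Clic6 and Otx2 on the 2 sides of the gap overlap.

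Deviations of each library from a group mean were used to measure how far the genes moved together. In the striatum and cortex this was the mean of its genotype, treatment and sex. In each cerebellum cluster it was the mean of its genotype only, so differences by treatment or sex stay in those correlations. Ttr was paired with each other gene in 4 sets of libraries (32 correlations, two-sided permutation tests that shuffled libraries within the same groups, 100000 resamples, Benjamini-Hochberg adjustment over the 32, smallest p they can give 1e-05). Among the 21 upper cerebellum libraries r was 0.97 for Kl, Folr1 and Aqp1, 0.96 for Slc4a5, 0.94 for Sostdc1, 0.92 for Clic6, 0.91 for Prlr and 0.82 for Otx2. The rank correlation rho lay between 0.76 for Otx2 and 0.97 for Folr1, every adjusted permutation p of r was at most 0.0001, and without the 2 libraries farthest from the median r was 0.69 to 0.97. Among the 19 lower ones Kl (r = 0.7, rho = 0.65, adjusted permutation p = 0.0027) and Otx2 (0.59, 0.72 and 0.017) still followed Ttr. Without the farthest 2 their r was 0.56 and 0.59. Folr1 held 1 to 10 and Aqp1 2 to 15 counts per library there. Neither passed the filter on low counts within these 19 libraries alone. Their r (0.55 for Folr1, 0.25 for Aqp1) and rho (0.48 and 0.22) are therefore given as a description. Both stayed among the 32 correlations that were adjusted together. Clic6, Prlr, Sostdc1 and Slc4a5 had r between 0.26 and 0.45 there and did not pass. The clusters were not pooled.

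In the 40 cortex libraries all 8 genes followed Ttr, from r = 0.65 and rho = 0.6 for Aqp1 (adjusted permutation p = 0.0013) to r = 0.94 and rho = 0.88 for Slc4a5 (adjusted permutation p = 2.3e-05). Without the 6 libraries above 100 CPM of Ttr, 5 of 8 passed (8 correlations adjusted together): Kl at r = 0.71, Slc4a5 at 0.66, Sostdc1 at 0.5, Folr1 at 0.49 and Clic6 at 0.39. Aqp1 and Prlr were then at r = 0.05 and 0.07, so their relation with Ttr in the cortex rested on those 6 libraries. In the 40 striatum libraries 4 of 8 genes passed. Slc4a5 had r = 0.71 and rho = 0.66, Kl 0.63 and 0.69 (adjusted permutation p = 2.3e-05 for both genes), Aqp1 0.57 and 0.54 (adjusted p = 0.0022) and Folr1 0.46 and 0.39 (adjusted p = 0.038). The r of Folr1 fell to 0.27 without the 2 farthest libraries and no longer passed. Clic6 (r = -0.03) and Prlr (r = 0.11) did not follow Ttr in the striatum. Within single groups of 10 libraries, r lay between 0.61 and 0.71 for Kl and between -0.29 and 0.34 for Clic6 in the striatum.

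The spread between libraries of the same genotype, treatment and sex set these genes apart from most of the transcriptome. In the cerebellum the standard deviation of log2 CPM within such sets was 3.68 for Ttr, and 10 of 17206 genes had a larger one. It was 3.07 for Sostdc1, 2.95 for Folr1, 2.44 for Kl, 2.32 for Aqp1, 2.07 for Prlr, 1.64 for Slc4a5, 1.54 for Clic6 and 0.38 for Otx2, against a median of 0.16 over all genes tested. In the cortex it ran from 0.97 for Kl to 1.76 for Ttr (median of all genes 0.15), and in the striatum from 0.19 for Clic6 to 0.87 for Ttr (median 0.17). Clic6 in the striatum was as even as a typical gene, with 43.6% of genes spreading more. In the liver Ttr, Aqp1 and Prlr had 0.29, 0.26 and 0.27, near the median of 0.25.

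**Figure D3:**
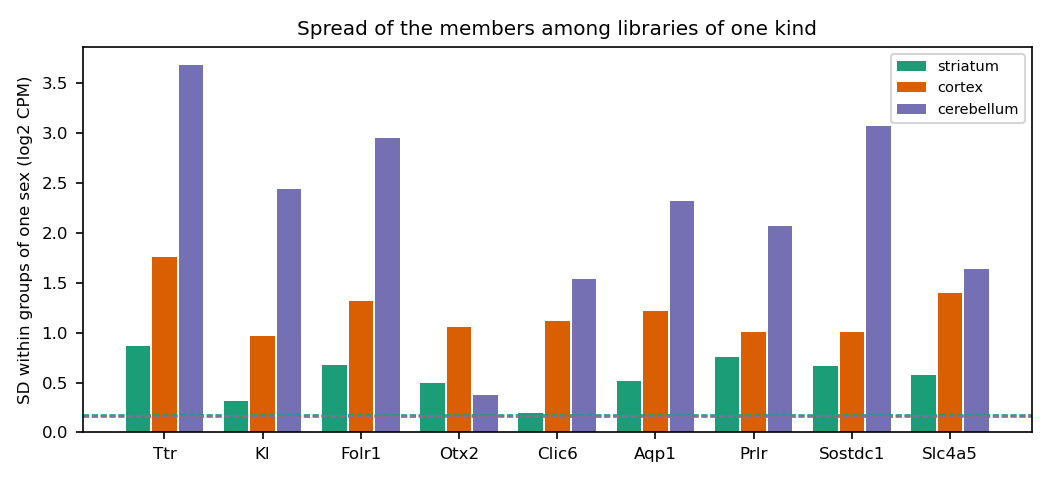
Standard deviation of log2 CPM between libraries of the same genotype, treatment and sex for each gene in the striatum, cortex and cerebellum. Dashed lines give the median over all genes tested in that region. Ttr reaches 3.68 in the cerebellum, and 8 of the 9 genes exceed 1.5 there.

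Genes outside the 9 that followed them most closely were found by rank correlation with the mean deviation of the 9 genes (40 libraries per region, among genes that averaged 1 CPM or more). Deviations here were from the mean of genotype, treatment and sex in every region. In the cerebellum the first 10 were Mfrp (rho = 0.99), Kcne2, Enpp2, F5, Car12, Gmnc and Steap1 (0.98 each), and Prr32, 1500015O10Rik and Krt18 (0.97 each). Enpp2, which encodes autotaxin, ran from 104.6 to 1467 CPM there. In the cortex F5 (0.85), Mfrp (0.82), 1500015O10Rik (0.77) and Kcnj13 (0.7) led, before Trpm3, Trpv4, Drc7, Lbp, Slc31a1 and Slc2a12 (0.64 to 0.55). In the striatum Slc13a4 (0.67) led, and those after it included Adgra1, Tspan33, Ube2ql1, Podxl2, Ptpru, Etnk2, Cacna1g and Slc29a4 (0.67 to 0.58), of which Slc13a4 and Slc29a4 were on the list of choroid plexus genes. Since the libraries of the cerebellum form 2 clusters, its values mostly measure which side of the gap a library was on.

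A list of 30 other choroid plexus genes, 29 of them in the table, gave the same order of regions. Like the 9 genes and the lists below, it was chosen with earlier results of these data known. Its values are therefore a description and not an independent check. Their median rho with the 9 genes was 0.96 in the cerebellum (28 of 29 above 0.6, Slc29a4 at 0.25), 0.53 in the cortex (12 of 27) and 0.37 in the striatum (3 of 26). Over all genes tested the median was -0.04, -0.01 and -0.0 in these regions, and 440, 20 and 12 genes were above 0.6. Genes of ependymal cells, the ciliated lining of the ventricles, had medians of 0.79 in the cerebellum (10 of 14 above 0.6) and 0.21 in the cortex and striatum. Their summed level moved far less, with a median of 22.4 CPM (16.4 to 34.6) in the upper cerebellum libraries and 15.7 CPM (9.29 to 17.7) in the lower. Meningeal fibroblast genes summed to 161.4 CPM (135.6 to 218) in the upper and 135.5 CPM (99.9 to 183.5) in the lower cerebellum libraries, with a median rho of 0.31. Hepatocyte genes, whose cells also make Ttr, summed to 16 CPM (0.916 to 65.2) in the upper and 18.1 CPM (0.395 to 130.04) in the lower cerebellum libraries, against 89353 to 134861 CPM in WT vehicle liver. In the cortex they summed to 22.6 CPM (10.9 to 102.2) in the 6 libraries above 100 CPM of Ttr and 14.5 CPM (0.611 to 52.7) in the others, and their part in the Ttr levels was not tested. Lists for endothelial cells, thalamus and habenula, hippocampus, hypothalamus, pineal gland, hindbrain, spiny neurons, cortical neurons and cerebellar neurons had medians of rho between -0.33 and 0.32 over the 3 regions, although 1 endothelial, 1 meningeal and 1 hippocampal gene exceeded 0.6 in the cerebellum and 1 hippocampal gene did in the cortex.

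Levels between genes were read from the deposited FPKM, which are scaled by gene length and were used by group. In WT vehicle cerebellum Ttr averaged 747 ± 831 FPKM (SD, n = 10), Otx2 8.46 ± 2.47, Clic6 7.13 ± 4.23, Kl 5.12 ± 5.46, Sostdc1 4.76 ± 5.41, Folr1 4.65 ± 5.16, Slc4a5 2.04 ± 1.67, Aqp1 1.57 ± 1.7 and Prlr 1.02 ± 1.04 FPKM. By these means Ttr lay far above the rest, and the neighbours from Otx2 to Folr1 did not differ beyond their SD. The means pool both clusters of libraries, and the order is not that of each library, since the lowest Ttr was 2.25 FPKM and the lowest Otx2 5.29 FPKM. In WT vehicle striatum the order was Ttr at 22.2 ± 7.84, Clic6 at 4.71 ± 0.465 and Kl at 0.832 ± 0.189 FPKM, with the other 6 genes at 0.461 FPKM or less. In WT vehicle cortex it was Ttr at 14.8 ± 6.11 and Clic6 at 0.744 ± 0.527 FPKM, and Kl followed at 0.671 ± 0.149 FPKM. In WT vehicle liver Ttr stood at 3730.0 ± 547, Prlr at 58.3 ± 44.9 and Aqp1 at 33.5 ± 5.86 FPKM, while Clic6, Folr1, Slc4a5 and Kl stayed at 0.0531 FPKM or less and Otx2 and Sostdc1 were listed at 0.

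Between brain regions of WT vehicle mice (30 libraries in 1 edgeR fit), all 9 genes were higher in the cerebellum than in the cortex, where 77.9% of all genes differed at an adjusted p under 0.05, the threshold used throughout. The log2 differences ran from 2.17 ± 0.56 for Prlr (SE) to 5.4 ± 0.5 for Slc4a5. Over the striatum 8 of 9 were higher in the cerebellum (80.3% of all genes differed), and Clic6 was at 0.13 ± 0.34. Without replicate 2, Kl (1.1) and Prlr (0.92) no longer passed against the striatum. The 6 upper libraries carried much of this. The other 4 cerebellum libraries were set apart by their low Ttr, with which these genes move, while no cortex or striatum library was left out, so their differences are given as a description with no test. Without the 6, Kl, Folr1, Aqp1, Prlr and Sostdc1 stood below the cortex, at log2 differences of -1.38, -1.08, -1.96, -1.33 and -3.32, and Otx2 (4.89), Slc4a5 (3.37) and Clic6 (1.53) stood above it (72.2% of all genes passed). Against the striatum, Otx2 (3.85) and Slc4a5 (2.77) stood above and Kl, Folr1, Clic6, Aqp1, Prlr and Sostdc1 below, at -1.76, -1.81, -1.19, -1.83, -1.91 and -3.09 (75.2% of all genes passed). The striatum exceeded the cortex in 2 of 9 genes (64.6% of all genes differed), Clic6 by 2.73 ± 0.38 and Otx2 by 1.05 ± 0.27. Per library, Clic6 had 16.7 to 21.8 CPM in WT vehicle striatum and 1.15 to 6.78 CPM in WT vehicle cortex, with no overlap.

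The comparison of R6/2 with WT mice asks whether the transgene changed these genes. In the cerebellum none of the 9 passed under vehicle in edgeR (1 at an unadjusted p under 0.05, 1 passing by DESeq2), where 52.3% of all genes passed. Ttr ran from 9.78 to 2719.8 CPM with a median of 638 CPM in R6/2 vehicle cerebellum, against 2.83 to 2337 CPM and a median of 425 CPM in WT vehicle cerebellum. The groups overlapped almost wholly, and the log2 difference of 0.21 ± 1.33 leaves room for large changes either way. Otx2 had 15.6 to 25.2 CPM with a median of 19 in R6/2 vehicle libraries and 10.4 to 22.4 CPM with a median of 14.9 in WT vehicle libraries (log2 difference 0.36 ± 0.17, adjusted p = 0.0669). With CHDI-00340246 in both genotypes, Otx2 was the 1 gene of 9 that passed (54.6% of all genes), at 0.38 ± 0.17 and an adjusted p of 0.0499, which was lost without replicate 1, 2, 3 or 5 (0.23, 0.33, 0.31 and 0.38), with the L code as a term (0.33) and under other scaling. Its levels there were 10.9 to 26.4 CPM in R6/2 and 7.81 to 20.3 CPM in WT.

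Within the 19 lower cerebellum libraries, Clic6, Slc4a5 and Otx2 differed by genotype. Clic6 had 1.45 to 2.82 CPM in the 3 R6/2 vehicle libraries and 7.19 to 10.8 CPM in the 4 WT vehicle libraries, and 0.953 to 1.96 CPM in the 6 R6/2 libraries with CHDI-00340246 against 7.37 to 11.2 CPM in the 6 WT libraries with CHDI-00340246. Clic6 fell by a log2 difference of -2.13 ± 0.23 under vehicle (adjusted p = 4.03e-07) and of -2.79 ± 0.18 with CHDI-00340246 (adjusted p = 6.95e-11). Slc4a5 had 0.679 to 1.31 CPM in R6/2 and 1.6 to 2.77 CPM in WT vehicle libraries. It fell by -1.17 ± 0.29 (adjusted p = 0.00245) and, with CHDI-00340246, by -1.06 ± 0.21 (adjusted p = 0.000283). Otx2 rose by 0.54 ± 0.2 and 0.4 ± 0.15 (adjusted p = 0.0346 and 0.0348). These 3 genes passed both under vehicle, where 40.5% of all genes passed, and with CHDI-00340246 (50.9%), and Kl and Prlr passed in neither. Sostdc1 passed under vehicle as well, but not with CHDI-00340246. It held 0 to 12 counts per library, so its call under vehicle rests on few counts and its difference is not given. Folr1 and Aqp1 held at most 10 and 15 counts in any of these libraries and are given no test. These libraries were left out after the data were seen and Ttr, which chose them, was not tested.

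Keeping all 40 cerebellum libraries and adding log2 Ttr as a term gave the same direction for these genes. Clic6 fell by -1.27 ± 0.29 under vehicle (adjusted p = 0.000368) and by -1.75 ± 0.29 with CHDI-00340246 (adjusted p = 4.98e-06). Slc4a5 fell by -0.8 ± 0.24 and -0.68 ± 0.24 (adjusted p = 0.00463 and 0.0184), and Otx2 rose by 0.3 ± 0.09 and 0.38 ± 0.09 (adjusted p = 0.00772 and 0.000786). Aqp1 fell by -0.52 ± 0.21 under vehicle (adjusted p = 0.0367) and was at -0.31 ± 0.24 with CHDI-00340246 (adjusted p = 0.285), and the difference between the treatments, 0.22 ± 0.32, did not pass (adjusted p = 0.885). That made 4 of 8 genes under vehicle (52.9% of all genes) and 3 of 8 with CHDI-00340246 (55.5%). The slope on Ttr was taken as common to both genotypes. For Clic6 the medians below and above the gap were 1.45 and 20 CPM in R6/2, and 10.2 and 39.5 CPM in WT. The genotypes thus lay further apart at low Ttr, and the Clic6 values of this fit average over that.

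**Figure D4:**
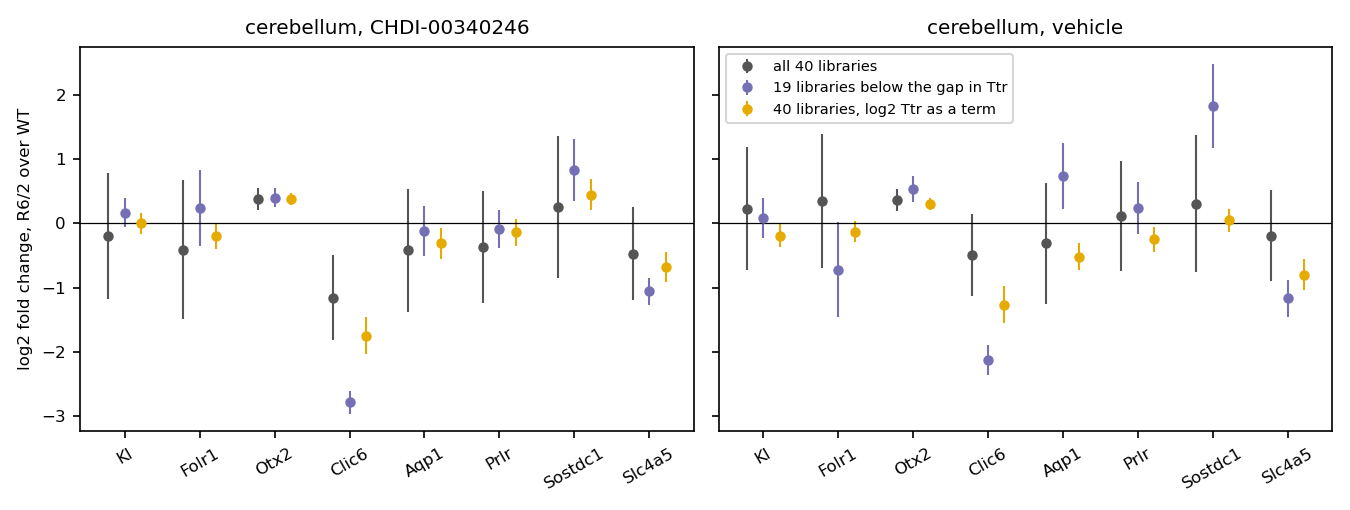
Log2 difference between R6/2 and WT cerebellum for each gene with CHDI-00340246 (left) and with vehicle (right), with all 40 libraries, with the 19 libraries below the gap in Ttr and with log2 Ttr as a term; bars are standard errors. The bars of Clic6 shrink from 0.64 to 0.23 under vehicle when the upper libraries are left out, and its difference moves from -0.5 to -2.13.

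In the cortex Sostdc1 differed most clearly. It had 1.48 to 3.03 CPM with a median of 1.91 in R6/2 vehicle libraries, against 0.287 to 1.02 CPM with a median of 0.748 in WT vehicle libraries. No library overlapped, and Sostdc1 rose by a log2 difference of 1.59 ± 0.53 (adjusted p = 0.0105), the 1 gene of 9 that passed under vehicle, where 55.02% of all genes passed. With CHDI-00340246 it had 1.55 to 7.74 CPM in R6/2 with a median of 2.06, against 0.281 to 1.8 CPM in 9 WT libraries and 19.4 CPM in the tenth, WT female replicate 5, the library with 1685 CPM of Ttr. Over all libraries the difference was 0.55 ± 0.49 (adjusted p = 0.345). Without the 6 libraries above 100 CPM of Ttr it was 1.91 ± 0.22 (adjusted p = 4.8e-09), and under vehicle 1.49 ± 0.19 (adjusted p = 2.25e-08). These 6 were left out after the data were seen, by Ttr, with which Sostdc1 moved in the cortex. With CHDI-00340246 they were 2 of R6/2 and 3 of WT, and under vehicle 1 of R6/2 and 0 of WT. The last 2 adjusted p-values thus rest on libraries chosen from the same data.

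Prlr and Folr1 were lower in R6/2 than in WT cortex with CHDI-00340246, 2 of 9 genes where 57.1% of all genes passed. Prlr had a median of 0.619 CPM (0.327 to 5.52) in R6/2 and of 1.35 CPM (0.765 to 25.6) in WT, a log2 difference of -1.35 ± 0.51 (adjusted p = 0.0238). Folr1 had a median of 0.129 CPM (0 to 2.82) in R6/2 and of 0.412 CPM (0.18 to 12.5) in WT, a difference of -1.81 ± 0.72 (adjusted p = 0.0302). Without the 6 libraries, left out after the data were seen, both stayed past the threshold, Prlr at -1.04 ± 0.3 and Folr1 at -1.58 ± 0.38. With Sostdc1 that made 3 of 8 genes (51.6% of all genes), and 1 of 8 under vehicle (53.5%). Under vehicle Prlr was at -0.06 ± 0.5 and Folr1 at 0.25 ± 0.74, and the drug by genotype interaction did not pass for either. With the L code as a term 1 of the 9 genes passed with CHDI-00340246. Without the libraries of replicate 5, Prlr was at -0.29 and Folr1 at -0.96 and neither passed, and both were also lost without replicate 1, as was Folr1 without replicate 2 or 4.

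**Figure D5:**
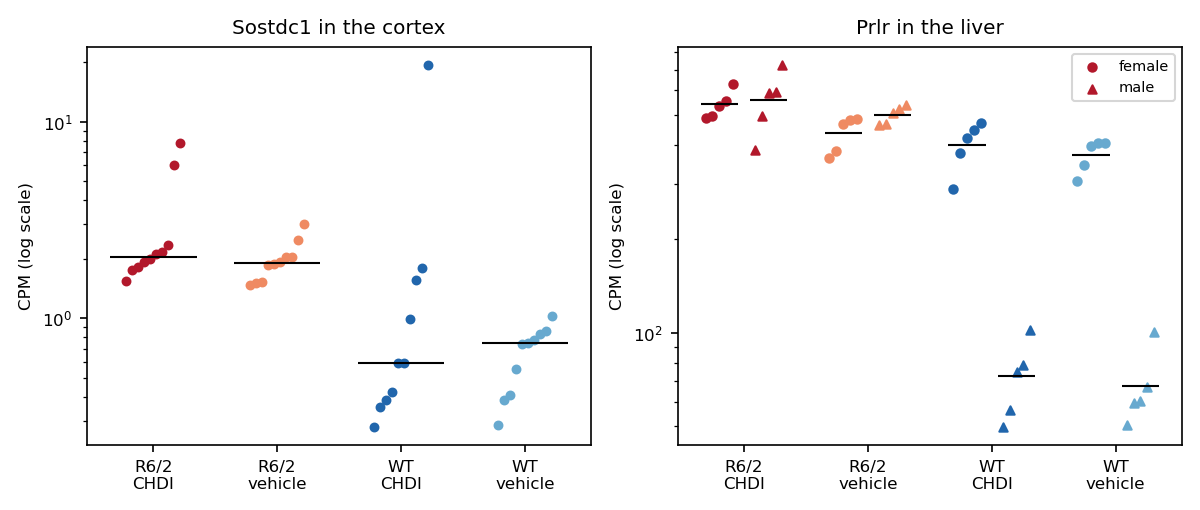
Sostdc1 in the cortex (TMM-scaled CPM, log axis) by genotype and treatment with group medians, and Prlr in the liver (TMM-scaled CPM) by genotype, treatment and sex with means; each point is a library. Sostdc1 lies at 1.48 CPM or above in every R6/2 library, and Prlr lies at or below 101.6 CPM only in livers of WT males.

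In the striatum Aqp1 fell in R6/2 mice. It had 0.0834 to 0.411 CPM with a median of 0.313 in R6/2 vehicle libraries and 0.154 to 0.75 CPM with a median of 0.436 in WT vehicle libraries, and all 10 R6/2 libraries lay below the WT mean. The log2 difference was -0.66 ± 0.26 (adjusted p = 0.0307), the 1 gene of 9 that passed, where 56.2% of all genes passed. With the L code as a term it was -0.59 and no longer passed, and it was lost without replicate 1, 2 or 4. With CHDI-00340246 in both genotypes 3 of 9 passed (58.1% of all genes), among them Aqp1 at -0.87 ± 0.27 (adjusted p = 0.00544). Prlr fell by -1.02 ± 0.33 (adjusted p = 0.00887), with 0.712 to 3.26 CPM in R6/2 and 0.828 to 6.61 CPM in WT. Otx2 rose by 0.68 ± 0.24 (adjusted p = 0.0137), with 0.623 to 2.91 CPM in R6/2 and 0.412 to 0.982 CPM in WT. The call of Otx2 was lost without replicate 5 (0.4) and with the L code as a term (0.63), and that of Prlr without replicate 3 (-0.61) or 4 (-0.81). Ttr was at 0.25 ± 0.38 under vehicle and -0.36 ± 0.39 with CHDI-00340246, and Clic6 at -0.06 ± 0.08 in both.

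Of the other choroid plexus genes, 2 rose and 8 fell of 26 tested in R6/2 vehicle striatum (median log2 difference -0.14, against 0.02 over all genes, of which 56.2% passed), while 5 rose and 1 fell of 27 in the cortex (0.13 against 0.01, 55.02% of all genes passed) and 1 of 29 fell in the cerebellum (0.08 against 0.01, 52.3% of all genes passed). The share of list genes that passed was thus below that of all genes in each region. In the striatum Car12, a carbonic anhydrase, fell by -2.35 ± 0.13, Wdr86 by -1.79 ± 0.22 and Ace, the angiotensin-converting enzyme, by -1.67 ± 0.08, while Htr2c, a serotonin receptor, rose by 0.76 ± 0.08. In the cortex Car12 fell by -1.46 ± 0.21, while Col8a2, Slc29a4 and Ace rose by 0.98 ± 0.28, 0.64 ± 0.15 and 0.46 ± 0.16. In the cerebellum the gene that fell was Slc29a4, a monoamine transporter, by -0.45 ± 0.09, whose rho with the 9 genes was 0.25 there. Some list genes, Htr2c among them, are known in neurons as well. In the striatum the rho of Htr2c with the 9 genes was -0.05. Ependymal genes showed 2 higher and 2 lower of 15 in the striatum, 1 and 1 of 14 in the cortex and 1 and 4 of 14 in the cerebellum, also below the 56.2%, 55.02% and 52.3% of all genes.

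The comparison of CHDI-00340246 with vehicle asks whether the inhibitor changed these genes within 6 h. No gene of the 9 passed in edgeR in R6/2 or WT mice in any brain region, nor any of the 4 in the liver. Over all genes, 0% passed in R6/2 striatum, 0.125% in R6/2 cortex, 0.0407% in R6/2 cerebellum, 0.0726% in R6/2 liver and 0% in each WT tissue. At an unadjusted p under 0.05 there were 2 of 9 in R6/2 striatum (Ttr at -0.92 ± 0.39 and Kl at -0.3 ± 0.14), 7 of 9 in WT cortex and none elsewhere. In WT cortex Ttr had 7.39 to 1685 CPM with a median of 26.1 with CHDI-00340246, against 8.72 to 30.7 CPM with a median of 18.3 with vehicle. Its log2 difference was 2.72 ± 0.84 (adjusted p = 0.267 in edgeR, and past the threshold in DESeq2, which called no other gene of the 9 for the drug in any tissue), and 1.31 without the libraries of replicate 5, which include the one with 1685 CPM. Slc4a5 (2.48 ± 0.78), Folr1 (2.02 ± 0.69), Sostdc1 (1.54 ± 0.54), Aqp1 (1.48 ± 0.63), Otx2 (1.25 ± 0.54) and Kl (1.09 ± 0.47) stood beside it. Without the 6 libraries above 100 CPM of Ttr these 6 genes ran from -0.34 to 0.31. That step was chosen after the data were seen. In WT cortex it took out 3 libraries with CHDI-00340246 and 0 with vehicle, by Ttr, with which these genes moved. The step itself thus lowers these differences, so they are given as a description with no test. In R6/2 cortex it took out 2 libraries with CHDI-00340246 and 1 with vehicle. Prlr was then at -1.27 ± 0.28 and Clic6 at -1.26 ± 0.41, also given as a description, and neither passed after adjustment. The drug by genotype interaction passed for none of the 9 in the brain (0% of all genes in each region; 1 of 9 at an unadjusted p under 0.05 in the cortex and none in the striatum and cerebellum, none by DESeq2), nor for the 4 in the liver (0%, none at an unadjusted p under 0.05, none by DESeq2).

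In the liver Prlr was the gene that changed with genotype, 1 of 4 tested where 25.7% of all genes passed. Under vehicle it had 363, 384, 469, 481 and 487 CPM in R6/2 females and 466, 469.7, 509, 523 and 539 CPM in R6/2 males. WT females had 307, 345, 399, 406 and 407 CPM, and WT males 50.6, 59.3, 60.2, 67 and 100.3 CPM. Means were 437 ± 58.4 CPM in R6/2 females, 501 ± 32.4 CPM in R6/2 males, 373 ± 45.1 CPM in WT females and 67.5 ± 19.3 CPM in WT males (SD, n = 5 each). WT males were thus the low group, with no overlap with any other. Prlr rose in R6/2 by a log2 difference of 1.56 ± 0.12 averaged over the sexes (adjusted p = 7.81e-12), and the effect in females minus that in males was -2.66 ± 0.24 (adjusted p = 5.51e-10, where 4.28% of all genes passed). Females exceeded males by 1.13 ± 0.12 averaged over the genotypes (adjusted p = 1.3e-08, where 4.18% passed).

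With CHDI-00340246, Prlr averaged 541 ± 55.9 CPM in R6/2 females and 558 ± 125.2 CPM in R6/2 males, against 402 ± 71.4 CPM in WT females and 72.3 ± 20.4 CPM in WT males, a genotype difference of 1.69 ± 0.12 (adjusted p = 8.21e-13, 1 of 4 genes where 28.8% of all genes passed). Liver Ttr did not pass, at -0.11 ± 0.13 under vehicle with 3601 to 5508 CPM in R6/2 and 3710.1 to 5661 CPM in WT. Aqp1 was at 0.18 ± 0.11, with 76.6 to 143.6 CPM in R6/2 and 78.4 to 111.6 CPM in WT. Clic6 stayed at or below 0.304 CPM in every liver. The 5 genes that did not pass the liver filter had at most 0.284 CPM there, and Otx2 and Sostdc1 had no count in 34 of 40 libraries each.

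In the brain none of the 9 genes differed by sex under vehicle (no unadjusted p under 0.05, none by DESeq2), where 0.0686% of all genes passed in the striatum, 0.103% in the cortex and 0.0639% in the cerebellum. Prlr in the striatum was at -0.34 ± 0.33 (females minus males), and Ttr in the cerebellum at 0.96 ± 1.34. No gene of the 9 passed the genotype by sex interaction in the brain (0% of all genes in each region, 1 of 9 at an unadjusted p under 0.05 in the striatum, none by DESeq2).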

How the data were processed

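Total RNA from striatum, cortex, cerebellum and liver was sequenced on Illumina instruments, and CASAVA 1.8.2 is named in the submitters' processing notes. The authors deposited estimated counts per Ensembl gene in 160 columns; 68.5% of values above 0 were whole within 1e-6, so they were rounded. The authors also deposited FPKM, whose making is not given in the sources used here. By correlation, 13 of 160 FPKM columns were closest to the counts under their own header and 160 to counts of their own group, so FPKM were read by group only. Of 39179 gene IDs, 37607 were named from GENCODE M21.

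Each tissue was fitted with edgeR 4.0.16 (R 4.3.3) quasi-likelihood over 8 cells of genotype, treatment and sex, with TMM scaling and filterByExpr. That left 17494 genes in striatum, 17554 in cortex, 17206 in cerebellum and 15145 in liver. P-values were adjusted by Benjamini-Hochberg over all of them, with a threshold of 0.05. SE is the log2 difference divided by the square root of F. Log2 CPM used a prior count of 2. The fits were tested on simulated data with known changes.

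Named genes were the 9, up to 4 per list and region with the smallest genotype p under vehicle, and the 10 most alike per region. Members and lists were chosen with earlier results of these data known. Alternatives were RLE size factors, no filter, limma-trend (limma 3.58.1) on log2 CPM, DESeq2 1.42.0, a block for the replicate number, sex as an additive term, the L code as a term, limma on log2(FPKM + 1) or log2(FPKM + 0.1) with a mean FPKM of at least 0.1, and each replicate number left out. Leaving out libraries high in Ttr, and log2 Ttr as a term, were chosen after seeing the data. Totals of 28.47 to 46.3 M counts per library leave the genes near 0.1 CPM with few counts each. A gene that the rule for similar genes picked in the striatum is not reported here.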

Additional observations from a re-analysis of the deposited data

Results flagged for a closer look

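Within groups of 10 libraries of 1 genotype and treatment, both sexes together, 19 values stood far from the rest. Chance gives about 1 such value in 20 groups, or 6.2 over the 31 pairs of gene and tissue in 4 groups each. In WT cortex with CHDI-00340246, female replicate 5, the library with the highest cortical Ttr, stood apart for Kl at 58.5 CPM, Prlr at 25.6, Clic6 at 34, Sostdc1 at 19.4, Folr1 at 12.5, Slc4a5 at 12.3, Aqp1 at 8.76 and Otx2 at 7.21 CPM. In R6/2 vehicle cortex, female replicate 5 stood apart for Folr1 at 1.92 CPM and Slc4a5 at 1.55 CPM, and in WT vehicle cortex female replicate 1 had a low Slc4a5 of 0.0459 CPM.

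In the striatum with CHDI-00340246, R6/2 male replicate 5 had 2.91 CPM of Otx2. In WT males of that treatment, replicate 3 had 89.7 CPM of Ttr, replicate 5 had 26.4 CPM of Clic6 and replicate 1 had 0.0297 CPM of Folr1. Under vehicle, male replicate 2 had 0.358 CPM of Prlr in R6/2 striatum and another male replicate 2 had 6.02 CPM in WT striatum. In the liver with CHDI-00340246, R6/2 male replicate 1 had 2590.4 CPM of Ttr and WT male replicate 3 had 44.8 CPM of Aqp1.

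The effect of the R6/2 genotype on liver Prlr differed between the sexes, with a log2 interaction of -2.66 (females minus males).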

How the results depend on the processing

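Over all alternatives, 401 counts stayed within 1.5 times of those reported and 39 moved. Of the values of single genes 488 kept direction and side of the threshold, 39 gained and 38 lost the call and 11 reversed. The cause was not tested. The genotype count under vehicle in the striatum (1) was 2 by limma-trend, 0 with the L code, and 0 to 1 without single replicates. With CHDI-00340246 in the cortex (2) it was 1 with no filter, 1 with the L code, 0 and 1 on FPKM with pseudocounts of 1 and 0.1, and 0 to 3 without single replicates. Under vehicle in the cerebellum (0) it was 1 by limma-trend, by DESeq2 and on FPKM at either pseudocount, 4 without the libraries above the gap in Ttr (1 of them Sostdc1, at 0 to 12 counts per library) or with log2 Ttr as a term, and 0 to 1 without single replicates. With CHDI-00340246 in the cerebellum (1) it was 0 with RLE, no filter, sex as an additive term or the L code, 2 by limma-trend and on FPKM at either pseudocount, 3 without the libraries above the gap or with log2 Ttr, and 0 to 1 without single replicates. With CHDI-00340246 in the liver (1) it was 2 with no filter and on FPKM at either pseudocount. The drug effect in WT cortex (0) was 1 by DESeq2. Striatum over cortex (2) was 4 without the cerebellum libraries above the gap. The cortex correlations that passed (8) were 5 without the libraries above 100 CPM of Ttr.

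Values that reversed did so without the cerebellum libraries above the gap, a step that keeps cerebellum libraries for low Ttr and so lowers the genes that move with it. Cerebellum over cortex became -1.38 for Kl, -1.08 for Folr1, -1.96 for Aqp1, -1.33 for Prlr and -3.32 for Sostdc1, and cerebellum over striatum -1.76 for Kl, -1.81 for Folr1, -1.19 for Clic6, -1.83 for Aqp1, -1.91 for Prlr and -3.09 for Sostdc1.

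Replicate numbers recur across groups. The deviations of libraries with the same number had a median r of -0.04 in striatum, 0.03 in cortex, -0.04 in cerebellum and 0.01 in liver (60 pairs each). Single pairs ran from -0.39 to 0.49 in the cerebellum. Whether such libraries share more than a number was not tested. With the replicate number as a block, the genotype count with CHDI-00340246 was 0 in the cortex and 0 in the cerebellum, and no other count moved by over 1.5 times. The FPKM alternatives were not run for the sex contrasts. At this depth, genes near 0.1 CPM rest on a few counts per library.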
